A study of Mus musculus with 6 samples.

Results

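Leukotrienes and prostaglandins are lipid mediators that basophils and other myeloid cells make on demand from arachidonic acid. Cytosolic phospholipase A2 frees arachidonic acid from membranes. 5-lipoxygenase, presented with its substrate by the 5-lipoxygenase-activating protein, turns it into leukotriene A4, which LTA4 hydrolase converts to leukotriene B4 and LTC4 synthase conjugates to the cysteinyl leukotriene C4. The cyclooxygenases turn it into prostaglandin H2, from which terminal synthases make prostaglandin D2, prostaglandin E2 and other prostanoids. Cysteinyl leukotrienes are well known products of activated basophils and mast cells, and prostaglandin D2 is a well known product of activated mast cells.

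The 10 enzyme genes examined here were Pla2g4a, Alox5, Alox5ap, Ltc4s, Lta4h, Alox15, Ptgs1, Ptgs2, Hpgds and Ptges. They were found by symbol in a table of 37043 gene symbols, in which all 10 were present. All 10 passed the filter on low counts and were tested together with the other genes, 16675 in all. The table holds 6 bulk RNA-seq libraries of mouse bone marrow-derived basophils (BMBAs), 3 from cultures given PBS for 6 h and 3 from cultures given 10 ng/mL IL-3 for 6 h. Both groups came from C57BL/6J WT bone marrow cells that had been grown for 7 days with 0.3 ng/mL of cytokine, which is IL-3 in the methods of the study, and enriched with beads against CD49b, so the PBS group had also seen IL-3. Neither the age of the mice nor how many were pooled per culture is given in the labels. The study compared these groups to learn which genes IL-3 changes in basophils in relation to their exit from the bone marrow.

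Library totals ranged from 10537540 to 13999287 counts, and a count of 0 in a library allowed up to 3 counts, which is 0.233 to 0.296 CPM (counts as a share of the library total, with totals adjusted by TMM, the trimmed mean of M values). The limit covers counting error only. Pearson's r of log2 CPM across genes was 0.985 to 0.988 between libraries of one group and 0.952 to 0.957 between groups. The cells carried the defining transcripts of basophils, with 7 marker genes summing to 9962 to 11128 CPM in the PBS and 14738 to 14962 CPM in the IL-3 libraries. Of the 7 genes, 5 were called higher and 1 lower (edgeR adjusted p below 0.05), beside 18.0% and 20.2% of all genes tested. Prss34 and Mcpt8, which encode basophil proteases, were at 5615 ± 323 and 3066 ± 171 CPM in PBS-treated BMBAs (SD, n = 3). Transcripts of other cells were present too and moved with the groups. The summed level of 10 monocyte and macrophage markers was 11752 to 12672 CPM in the PBS libraries and 6156 to 6776 CPM in the IL-3 libraries. Of the 10 genes, 7 were called lower and 2 higher, beside 20.2% and 18.0% of all genes tested. The most abundant of the 10 were Lyz2 (10456 ± 432 and 5348 ± 316 CPM) and C1qb (615 ± 17.9 and 294 ± 9.66 CPM). The summed level of 7 mast cell markers, led by Cpa3 and Tpsb2, was 841 to 945 CPM and 1438 to 1572 CPM. Of 6 tested mast cell markers 4 were called higher, beside 18.0% of all genes tested. Neutrophil markers, among them Lcn2 and Retnlg, summed to 113 to 156 and 186 to 245 CPM, and eosinophil markers, among them Ear2 and Prg2, to 155 to 173 and 95.6 to 136 CPM. Of 6 tested neutrophil markers 3 were called higher and 1 lower. Of 5 tested eosinophil markers 1 was called higher and 3 lower. The shares of all genes tested were 18.0% higher and 20.2% lower. The members of the neutrophil list and of the eosinophil list did not move together. Retnlg (11.3 to 69.2 CPM) and Prg2 (4.27 to 49.8 CPM) rose whereas Mpo (42.9 to 27.7 CPM), Ear2 (134 to 51.3 CPM), Ear1 (12.9 to 5.38 CPM) and Siglecf (7.34 to 4.13 CPM) fell. No listed marker was at 0 in all 6 libraries. The defining eosinophil gene Epx was near 0, at 0.230 and 0.445 CPM. In bulk libraries, fewer cells of a type and less of an RNA per cell cannot be told apart, and the part of these other cells in the results that follow was not tested.

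Of these enzymes, the genes of 5-lipoxygenase, the inducible cyclooxygenase and the phospholipase rose with IL-3, and the genes of 12/15-lipoxygenase, hematopoietic prostaglandin D synthase and LTC4 synthase fell. Alox5 was 3.53-fold and Ptgs2 was 6.55-fold higher in IL-3-stimulated BMBAs, and Pla2g4a was 1.66-fold higher. Alox15, Hpgds and Ltc4s were 2.39-fold, 2.16-fold and 2.06-fold lower. Alox5ap, Lta4h, Ptgs1 and Ptges did not pass the test. The quasi-likelihood test of edgeR, with a threshold of 0.05 on the adjusted p, thus called 6 of the 10 genes, 3 higher and 3 lower, in a comparison in which 38.2% of all genes tested were called (18.0% higher and 20.2% lower). The 10 genes had a median log2 fold change of -0.18, against -0.0033 over all genes tested. Called changes above 1 on the log2 scale were seen for 2 of the 10 genes and for 3.90% of all genes, and called changes below -1 for 3 of the 10 genes and for 5.68% of all genes. Scaling by library totals in place of TMM moved the median of all genes to -0.17 and the share of higher genes among all calls from 47.1% to 25.2%. No member changed direction under it, but 7 of the 10 genes were then called lower, with Alox5ap, Lta4h, Ptgs1 and Ptges added to Alox15, Hpgds and Ltc4s. Over all 16675 genes tested, the number called lower went from 3372 to 5030 under this scaling.

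**Figure D1:**
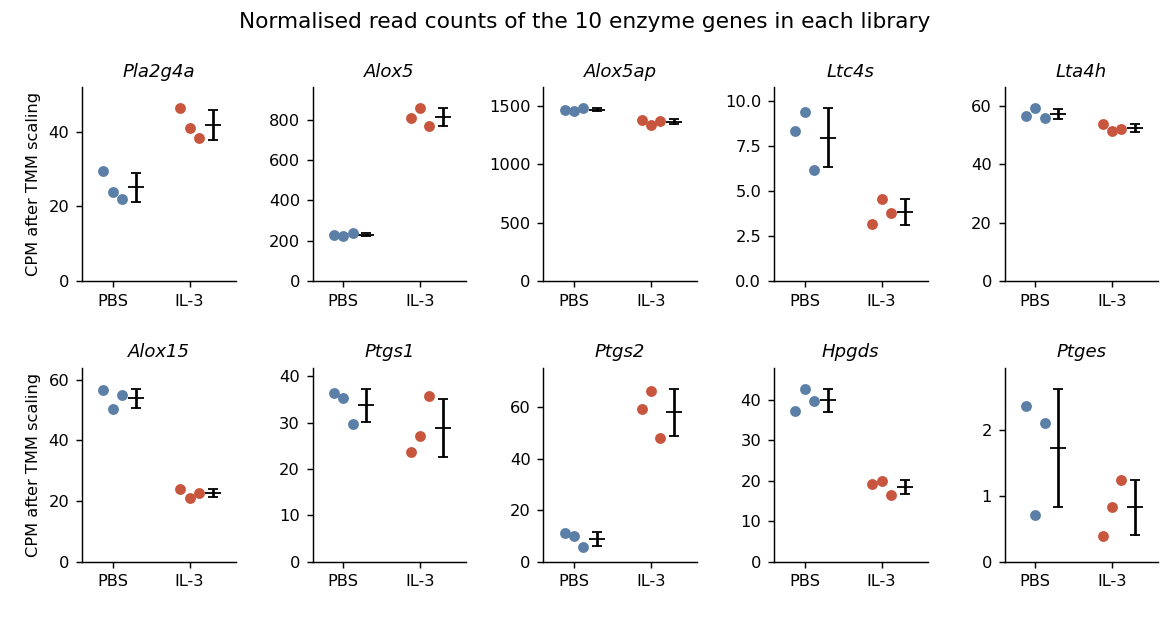
Normalised expression (CPM after TMM scaling, linear axes from 0) of the 10 enzyme genes in each of the 3 PBS (blue) and 3 IL-3 (red) libraries; the black bars show mean ± SD. The groups are widely separated for Alox5, Ptgs2, Alox15 and Hpgds, lie close together for Alox5ap and Lta4h, and overlap for Ptgs1 and Ptges.

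The promoter windows of both strongly raised genes and of Hpgds, the lowered synthase, are shown because these genes carry the largest changes for which RefSeq (GRCm38.p6) gave a window. Each runs 5′ to 3′ on the strand of the gene from 250 bases before the annotated start site through its first 25 bases, and capitals mark the matches named after the sequences. Windows were found for 8 of the 10 genes. The coordinates are chr6:116461154-116461428 (minus strand) for Alox5, chr1:150099781-150100055 (plus strand) for Ptgs2 and chr6:65144706-65144980 (minus strand) for Hpgds.
Alox5: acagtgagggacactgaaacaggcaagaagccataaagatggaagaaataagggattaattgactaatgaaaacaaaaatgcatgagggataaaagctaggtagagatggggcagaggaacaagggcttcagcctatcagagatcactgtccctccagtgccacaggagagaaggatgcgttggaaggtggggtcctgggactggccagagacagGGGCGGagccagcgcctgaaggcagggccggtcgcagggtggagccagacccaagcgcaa
Ptgs2: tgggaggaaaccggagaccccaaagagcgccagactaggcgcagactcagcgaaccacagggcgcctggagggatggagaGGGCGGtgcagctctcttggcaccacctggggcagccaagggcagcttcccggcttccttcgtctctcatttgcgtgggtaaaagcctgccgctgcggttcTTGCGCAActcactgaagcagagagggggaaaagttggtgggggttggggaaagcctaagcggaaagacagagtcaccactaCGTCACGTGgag
Hpgds: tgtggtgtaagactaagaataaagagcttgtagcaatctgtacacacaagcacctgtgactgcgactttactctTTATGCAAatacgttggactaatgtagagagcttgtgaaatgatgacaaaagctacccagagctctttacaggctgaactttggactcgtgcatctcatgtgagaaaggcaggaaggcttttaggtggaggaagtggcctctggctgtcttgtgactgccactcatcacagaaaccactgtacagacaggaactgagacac

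In each window, 10 motifs were searched on both strands, over 300 bases that reach 25 bases further past the start site than the sequences printed here. They were the STAT motif TTCNNNGAA, the cyclic AMP response element (CRE) as TGACGTCA and in a shorter form as TGACG, the AP-1 motif TGANTCA and the C/EBP motif TTNNGCAA. The core promoter box was searched as TATAAA, the E-box as CACGTG, the GC box as GGGCGG and the motif of GATA factors as AGATAA, besides the NF-kB consensus. A full CRE match would also count as the shorter form. The Alox5 window held a GC box that began at base -35, counted from the start site. The Ptgs2 window held a GC box at -170, a C/EBP match at -69, and at 14 to 22 bases from the start site the short CRE form on the other strand, which overlapped an E-box at 17. The Hpgds window held a C/EBP match at -176. Among all 32851 mouse promoter windows of 300 bases, the C/EBP letters occurred in 10.8%, the short CRE form in 20.8%, the E-box in 7.15% and the GC box in 35.7%. The STAT letters, which occur in 8.3% of all windows, were in none of the 9 windows of these genes (Pla2g4a has a pair of start sites). Of the 9 windows, 4 held none of the 10 motifs. A match of letters is not a measured binding site.

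Pla2g4a (chromosome 1, 149829618 to 149961290, minus strand, GRCm38) encodes the cytosolic phospholipase A2 that releases arachidonic acid. It was at 29.5, 23.8 and 21.9 CPM in the PBS libraries and at 46.3, 40.9 and 38.4 CPM in the IL-3 libraries. All 3 IL-3 libraries lay above all PBS libraries, as did the IL-3 libraries of 23.8% of all genes tested. The means were 25.1 ± 3.91 and 41.9 ± 4.04 CPM (SD, n = 3 each), and the log2 fold change was 0.73 (SE 0.111, edgeR adjusted p 7.22e-05). This was the smallest of the called changes of the 10 genes, and a test that required more than a 1.5-fold change (glmTreat) gave an edgeR adjusted p of 0.238.

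Alox5 (chromosome 6, 116410077 to 116461178, minus strand), the gene of 5-lipoxygenase, had the smallest adjusted p of the 10 genes. With PBS its level was 227, 223 and 240.4 CPM, and with IL-3 it was 809, 859 and 771 CPM. The lowest IL-3 library was thus more than 3 times the highest PBS library. On the log2 scale it rose by 1.82 (SE 0.0548, edgeR adjusted p 3.42e-13), and this value stood at place 226 from the top among the 16675 genes tested. It stayed between 1.66 and 1.86 over 15 alternatives, the lowest of which was scaling by library totals.

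Alox5ap (chromosome 5, 149264767 to 149288153, plus strand), whose product holds arachidonic acid for 5-lipoxygenase at the nuclear membrane, was not called. It was the most abundant of the 10 genes, with 1463, 1459 and 1483 CPM in the PBS libraries and 1382, 1341 and 1374 CPM in the IL-3 libraries. The groups did not overlap and the IL-3 libraries were the lower ones, but the difference was small. The means of 1468 ± 13.1 and 1366 ± 21.9 CPM (SD, n = 3 each) differed by -0.10 on the log2 scale (95% interval -0.19 to -0.019), for which edgeR gave an adjusted p of 0.0512. The call depended on the settings, since the adjusted p was 0.0166 with an iterated TMM that leaves called genes out, 0.0152 with limma-voom and 0.0498 without IL-3 replicate 1, whereas it was 0.158 without IL-3 replicate 2. Under library totals the log2 fold change was -0.27 with an adjusted p of 0.000139.

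Per length of transcript, Alox5ap stood 18.3 ± 0.562 times higher than Alox5 in the PBS libraries (SD, n = 3, range 17.6 to 18.7). In the IL-3 libraries it was 4.81 ± 0.321 times higher (SD, n = 3, range 4.46 to 5.09). The ratio within a library does not depend on how the libraries are scaled, and its groups did not overlap. Its size rests on the longest annotated transcript of each gene. It also takes reads to be spread evenly along transcripts, which was not checked.

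Leukotriene A4 is the substrate of the next enzymes. Lta4h (chromosome 10, 93453411 to 93484875, plus strand), the hydrolase that makes leukotriene B4, had 56.7, 59.3 and 56.0 CPM in the PBS libraries and 53.8, 51.4 and 52.0 CPM in the IL-3 libraries. The IL-3 libraries were lower without overlap, but the log2 fold change of -0.13 (95% interval -0.28 to 0.016) did not pass the test, with an edgeR adjusted p of 0.154. It was called only under library totals among the 15 alternatives (log2 fold change -0.29, adjusted p 0.00408).

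Ltc4s (chromosome 11, 50236461 to 50238616, minus strand) encodes LTC4 synthase, the first step specific to cysteinyl leukotrienes. It was read from few counts, 102, 107 and 70 in the PBS libraries and 32, 55 and 49 in the IL-3 libraries. These were 8.34, 9.38 and 6.17 CPM against 3.16, 4.58 and 3.80 CPM, so that every IL-3 library was lower than every PBS library. It fell by 1.04 on the log2 scale (SE 0.208, edgeR adjusted p 0.000897). The standard error was the largest among the called genes, and against a fold of 1.5 the edgeR adjusted p was 0.0575. Among the 10 genes, Ltc4s, Alox15, Hpgds, Alox5ap and Lta4h were those with all IL-3 libraries below all PBS libraries, which held for 24.4% of all genes tested. In either direction, 8 of the 10 genes had groups that did not overlap, against 48.2% of all genes.

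Alox15 (chromosome 11, 70344152 to 70352031, minus strand), the gene of the 12/15-lipoxygenase that oxygenates arachidonic and other fatty acids, had the lowest log2 fold change of the 10 genes. It had 56.5, 50.5 and 54.9 CPM in the PBS libraries and 24.0, 21.2 and 22.8 CPM in the IL-3 libraries. The groups were far apart relative to their spread. The log2 fold change was -1.25 (SE 0.0867, edgeR adjusted p 1.00e-08). The neighbouring Alox12e (chromosome 11, 70315610 to 70322628), which encodes a 12-lipoxygenase, also fell, from 6.58 ± 2.01 to 1.18 ± 0.0994 CPM (SD, n = 3 each), or by 2.48 on the log2 scale (edgeR adjusted p 3.38e-06). No 50-mer of either gene's transcripts occurred in transcripts of another gene.

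Of the cyclooxygenase genes, Ptgs1 (chromosome 2, 36230426 to 36252272, plus strand) encodes the largely constitutive COX-1. It had 36.3, 35.2 and 29.7 CPM in the PBS libraries and 23.6, 27.1 and 35.8 CPM in the IL-3 libraries, and the groups overlapped. Its log2 fold change was -0.22 (95% interval -0.50 to 0.058, edgeR adjusted p 0.209). IL-3 replicate 3, the highest of its group, decided this result, since without it the value was -0.41 (edgeR adjusted p 0.0134). Without IL-3 replicate 1 it was -0.10, and under library totals it was -0.39 with an adjusted p of 0.0201.

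Ptgs2 (chromosome 1, 150100031 to 150108227, plus strand) encodes COX-2, which many cells induce on activation. It rose from 11.0, 9.82 and 5.55 CPM in the PBS libraries to 59.3, 66.5 and 48.2 CPM in the IL-3 libraries. PBS replicate 3 was the lowest of its group and IL-3 replicate 3 the lowest of the other, but the groups were well apart. The means were 8.80 ± 2.88 and 58.0 ± 9.22 CPM (SD, n = 3 each), and the log2 fold change was 2.71 (SE 0.173, edgeR adjusted p 3.86e-09), at place 85 from the top among all genes tested. It ranged from 2.47 without PBS replicate 3 to 2.91 without PBS replicate 1.

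Among the terminal synthases, Hpgds (chromosome 6, 65117293 to 65144908, minus strand) encodes the enzyme that makes prostaglandin D2 in hematopoietic cells. It had 37.1, 42.7 and 39.7 CPM in the PBS libraries and 19.2, 19.8 and 16.4 CPM in the IL-3 libraries. Every IL-3 library was below every PBS library, and the means of 39.9 ± 2.78 and 18.5 ± 1.79 CPM (SD, n = 3 each) gave a log2 fold change of -1.11 (SE 0.101, edgeR adjusted p 2.89e-07). It was the only one of the 10 genes that shared 50-mers with other transcripts, at 0.393%.

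Ptges (chromosome 2, 30889471 to 30929863, minus strand), the microsomal prostaglandin E synthase that is often induced together with COX-2, was scarcely detected. It had 29, 8 and 24 counts in the PBS libraries and 4, 10 and 16 counts in the IL-3 libraries. That was 2.37, 0.701 and 2.11 CPM against 0.395, 0.833 and 1.24 CPM, and the groups overlapped because of PBS replicate 2. The log2 fold change, -1.03, had a wide 95% interval of -2.01 to -0.043 (edgeR adjusted p 0.0945). Without PBS replicate 2 the log2 fold change was -1.40 with an adjusted p of 0.0170, and without PBS replicate 1 it was -0.73 with an adjusted p of 0.332. From these few counts no firm change of Ptges was detected, and whether it was called depended on the library left out.

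**Figure D2:**
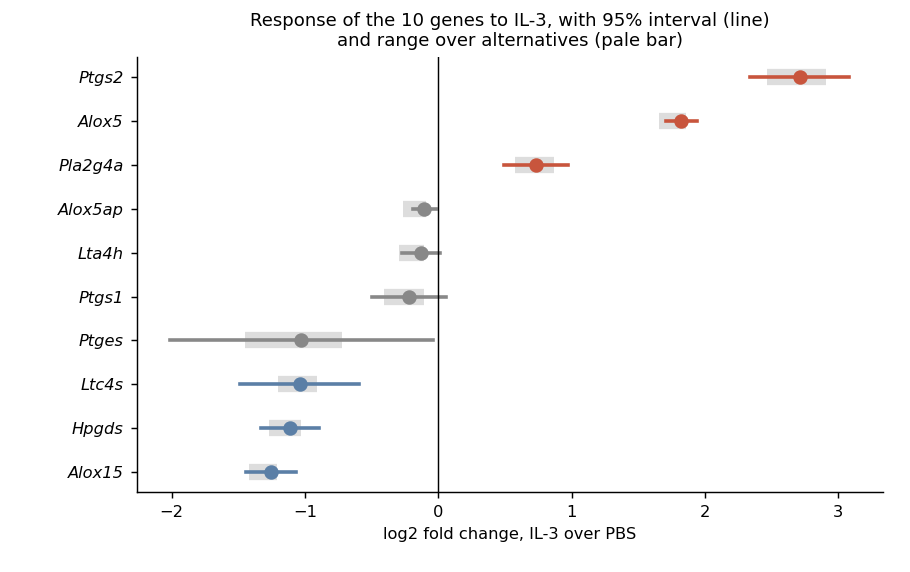
Log2 fold change (IL-3 over PBS) of the 10 genes with its 95% interval (line) and the range of values over 15 alternatives of scaling, filter, test and left-out libraries (pale bar); red was called higher, blue lower and grey not called. Ptgs2 (2.71), Alox5 (1.82) and Pla2g4a (0.73) lie to the right of 0, and Ltc4s, Hpgds and Alox15 lie between -1.04 and -1.25.

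When counts were related to transcript length (CPM per kb of the longest annotated transcript), the order of the genes was led by Alox5ap and Alox5 in both groups. Levels per kb take reads to be spread evenly along each transcript, which was not checked. Alox5ap was at 1174 ± 10.5 and 1092 ± 17.5 CPM per kb, and Alox5 at 64.3 ± 2.58 and 227 ± 12.3 CPM per kb in PBS and IL-3 (SD, n = 3 each). In PBS-treated BMBAs there followed Alox15 (22.4 CPM per kb), Lta4h (17.8), Ptgs1 (11.8), Ltc4s (11.1), Hpgds (10.2), Pla2g4a (7.26), Ptgs2 (1.98) and Ptges (0.474). Ptgs1 and Ltc4s, and Ltc4s and Hpgds, overlapped between libraries, whereas the other neighbours were apart.

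In IL-3-stimulated BMBAs the order after Alox5 was Lta4h (16.3 CPM per kb), Ptgs2 (13.0), Pla2g4a (12.1), Ptgs1 (10.1), Alox15 (9.40), Ltc4s (5.37), Hpgds (4.75) and Ptges (0.226). Ptgs2 thus went from place 9 to place 4, next to the phospholipase, while Alox15 went from place 3 to place 7. The libraries of Ptgs2, Pla2g4a, Ptgs1 and Alox15 overlapped from neighbour to neighbour, as did those of Ltc4s and Hpgds. With other measures of transcript length, Alox5ap and Alox5 stayed first and Ptges last in both groups, but the order between them shifted. Ptgs2 went from place 9 to place 3 or 6 with these, and Alox15 from place 3 to 4 with all exons merged and from 5 to 7 with the median transcript length.

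**Figure D3:**
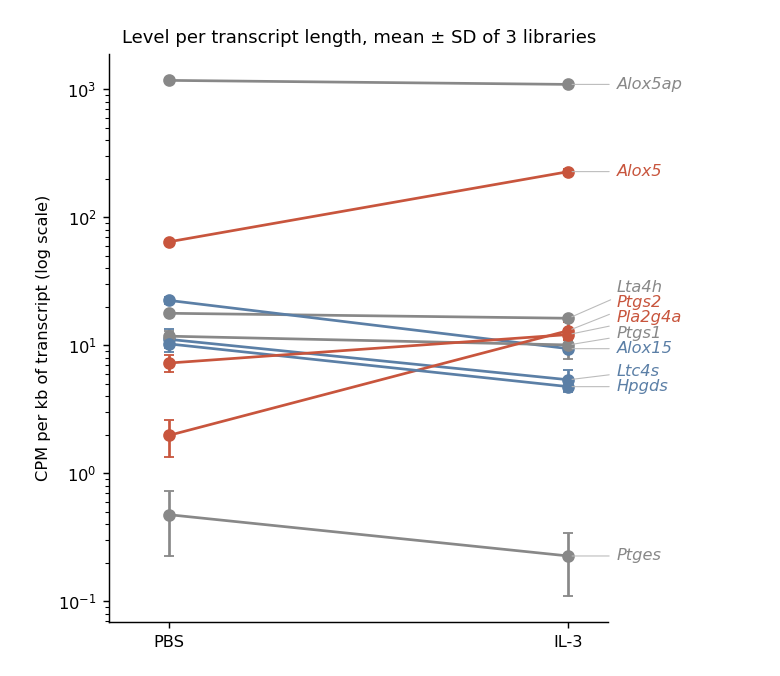
Level of the 10 genes per kb of transcript (CPM per kb, log axis) in PBS and IL-3, mean ± SD of 3 libraries; red was called higher, blue lower and grey not called. Ptgs2 climbs from 1.98 to 13.0 CPM per kb, while its IL-3 libraries overlap those of Pla2g4a, and Alox5 comes closer to Alox5ap.

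Ratios between paired enzymes within a library were compared for 4 pairs by an exact two-sided permutation test over the 6 libraries, for which 3 libraries against 3 cannot give a p below 0.1. The log2 ratio of Ptgs2 to Ptgs1 was -1.97 ± 0.363 in PBS and 1.01 ± 0.510 in IL-3 (SD, n = 3 each; exact p 0.1, adjusted 0.133). These are ratios of reads and take no account of the longer transcript of Ptgs2, and per kb the libraries of both genes were not apart in IL-3, where replicate 3 had the lowest Ptgs2 and the highest Ptgs1. The log2 ratio of Alox5 to Alox15 went from 2.09 ± 0.0754 to 5.16 ± 0.153 (exact p 0.1, adjusted 0.133). That of Ltc4s to Lta4h, the cysteinyl leukotriene over the leukotriene B4 branch, went from -2.84 ± 0.270 to -3.72 ± 0.290 (exact p 0.1, adjusted 0.133). For these 3 pairs the groups did not overlap, and the p was the smallest the design allows. The log2 ratio of Hpgds to Ptges was 4.54 ± 0.943 and 4.32 ± 0.768 with overlapping groups (exact p 0.7).

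**Figure D4:**
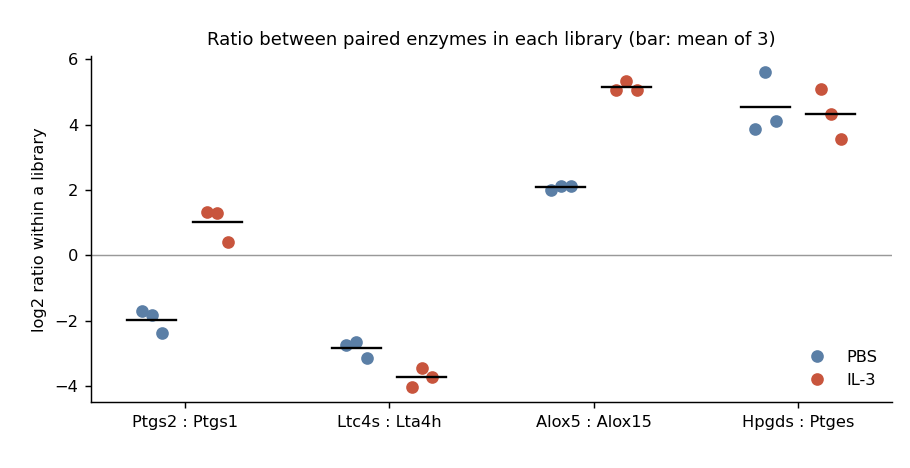
Log2 ratio of reads between paired enzyme genes in each PBS (blue) and IL-3 (red) library; the bars are means of 3 libraries. Ptgs2 to Ptgs1 crosses 0, with all PBS libraries between -2.38 and -1.70 and all IL-3 libraries between 0.42 and 1.32, and Hpgds to Ptges overlaps.

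The other genes of the pathway were taken from a list of 61 genes in 6 roles, of which 43 were tested. The test called 27 of them, with 11 up and 16 down, where 38.2% of all genes tested were called (18.0% higher and 20.2% lower). The 43 genes had a median log2 fold change of -0.27, against -0.0033 over all genes tested. Among 11 tested genes of phospholipases and arachidonate handling, 3 were higher and 3 lower. Pla2g7, whose product degrades platelet-activating factor, fell from 333 ± 26.0 to 126 ± 4.41 CPM (SD, n = 3 each), which is -1.41 on the log2 scale (edgeR adjusted p 5.26e-11). Mboat7 and Acsl4, whose products return arachidonic acid to phospholipids, rose by 0.97 and 0.65 on the log2 scale (edgeR adjusted p 2.28e-09 and 2.33e-07). Of 7 tested genes on the leukotriene side, 4 were lower and none was higher at an adjusted p below 0.05, beside 20.2% lower and 18.0% higher of all genes tested. Cyp4f18, which inactivates leukotriene B4, was at -0.48, Dpep2, a dipeptidase that makes leukotriene E4, at -0.87, and the glutathione transferase gene Mgst3 at -0.99 (edgeR adjusted p 1.95e-06, 4.08e-05 and 0.000282). For Dpep2, 6.13% of its 50-mers occur in other transcripts, chiefly those of Dpep2nb, which overlaps it on the same strand.

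Of 6 tested prostanoid synthases besides the 10 enzymes, 2 were higher and 2 lower, beside 18.0% and 20.2% of all genes tested. Ptges3, a cytosolic prostaglandin E synthase and co-chaperone, and Tbxas1, the thromboxane synthase, rose by 0.41 and 0.48 on the log2 scale, and Prxl2b, a prostaglandin F synthase, fell by 1.75 (edgeR adjusted p 2.17e-05, 0.000143 and 2.17e-05). Ptges3 is uncertain, since 19.6% of its 50-mers occur in other transcripts, chiefly those of its pseudogene. Of 4 tested genes of export and breakdown, 3 were lower, beside 20.2% of all genes tested. Ptgr1, which inactivates leukotriene B4 and oxidised prostaglandins, fell from 108 ± 4.92 to 37.3 ± 2.76 CPM (log2 fold change -1.53, edgeR adjusted p 8.87e-11), and Ptgr2 and the exporter gene Abcc4 were at -0.39 and -0.55 (edgeR adjusted p 0.0145 and 0.0168), the latter with overlapping groups. Of 4 other tested lipoxygenase genes, Alox8 was higher (0.41, edgeR adjusted p 0.00356) and Alox12e lower.

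Receptor genes for these mediators went both ways. Of 11 tested receptor genes, 5 were higher and 3 lower, beside 18.0% and 20.2% of all genes tested. Ltb4r1, the high-affinity receptor for leukotriene B4, went from 12.8, 16.8 and 13.6 CPM to 81.8, 90.4 and 87.3 CPM, a log2 fold change of 2.59 (edgeR adjusted p 4.89e-12). The adjacent Ltb4r2 rose by 2.98 (edgeR adjusted p 7.18e-10), and Ptger3, a receptor for prostaglandin E2, went from 65.0 ± 4.75 to 187 ± 0.788 CPM (SD, n = 3 each; log2 fold change 1.53, edgeR adjusted p 1.85e-11). These 3 receptor genes were picked for the smallest adjusted p. Their IL-3 libraries lay above the PBS libraries without overlap, as did those of 23.8% of all genes tested. The receptor genes called lower, named here after their values were seen, were those of the thromboxane receptor (Tbxa2r, log2 fold change -2.19), of another prostaglandin E2 receptor (Ptger2, -1.18) and of the prostaglandin F receptor (Ptgfr, -0.89), with edgeR adjusted p of 0.00501, 0.00171 and 0.00782. All 3 were low, at 2.55, 7.04 and 3.91 CPM in PBS.

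**Figure D5:**
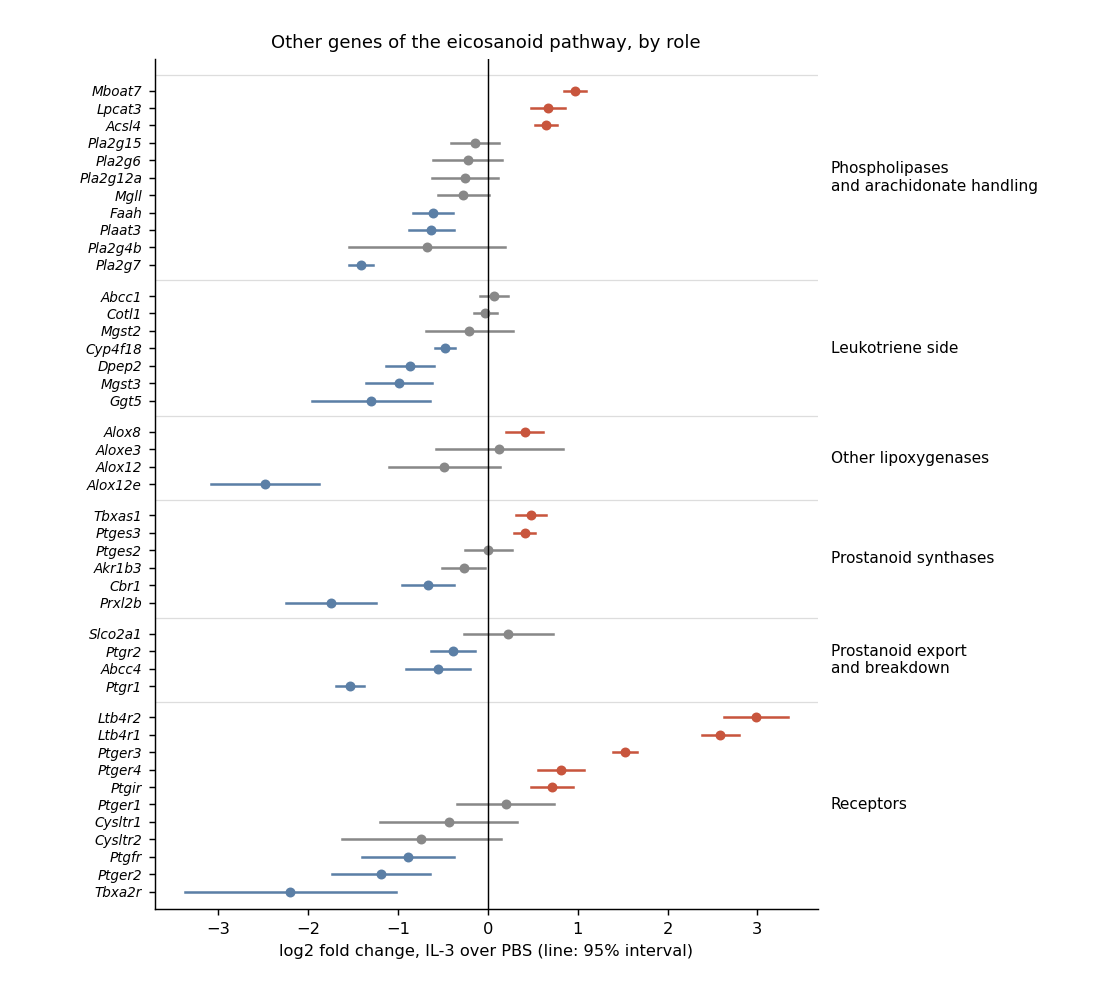
Log2 fold change (IL-3 over PBS) with 95% interval for the 43 tested genes of the wider pathway, grouped by role; red was called higher, blue lower and grey not called. Ltb4r2, Ltb4r1 and Ptger3 stand furthest to the right, Tbxa2r and Alox12e furthest to the left, and no gene of the leukotriene side or of export and breakdown was called higher.

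The genes whose profile over the 6 libraries was most like that of Ptgs2 and of Alox15, the called genes with the highest and lowest log2 fold change, were looked up among 7089 genes with at least 20 CPM in the higher group. For Ptgs2 they were Psmc4, Serbp1 and Vmp1 (Pearson's r of log2 CPM 0.998, 0.998 and 0.997), although these rose by only 0.31, 0.29 and 0.65 on the log2 scale. For Alox15 they were App, Rassf8 and Nqo2 (Pearson's r 0.9997, 0.9995 and 0.999), which were at -0.84, -1.59 and -0.73. The 6 points fall into the PBS and the IL-3 group, which sets most of r, and 40 and 139 genes had r above 0.99 with Ptgs2 and Alox15.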

How the data were processed

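Bulk RNA-seq was analysed in 6 libraries of BMBAs, 3 per group as labelled. The authors deposited raw read counts per gene symbol. They trimmed reads with Cutadapt (version 3.4 in the submitters' processing notes) and mapped them with Bowtie2 to reference RNA on one strand; the methods name GRCm38 and the processing notes GRCm39. No molecular identifiers are described, so PCR copies count as reads. Columns were matched to samples by title, and no per-sample column was left unused. Nothing but the study's mention of cultures shows how separate the replicates were, so p-values measure the spread between these libraries.

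Counts were filtered with filterByExpr, scaled by TMM and tested with edgeR 4.0.16 (R 4.3.3), quasi-likelihood F test, two-sided, group as the only term, with Benjamini-Hochberg adjustment over all genes tested. The SE and the 95% interval came from the F value. The methods of the study name TCC, a package built on edgeR and iterated TMM. The nearest alternative here, iterated TMM (DEGES), also called Alox5ap lower (edgeR adjusted p 0.0166). It thus called 4 enzyme genes lower, beside 3594 genes in all. Alternatives were DESeq2 1.42.0 size factors and Wald test, library totals, iterated TMM (DEGES), no filter, 1 CPM in 3 libraries, the edgeR exact test, limma-voom (limma 3.58.1), glmTreat at 1.5-fold, a replicate block, other thresholds and leaving out each library. The pipeline was tested on simulated counts. Coordinates, lengths and shared 50-mers came from GENCODE M21 (GRCm38).

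Named genes were the 10 enzymes, per role the 3 list genes with the smallest adjusted p below 0.05, per marker list the 2 most abundant genes, and per profile the 3 most similar genes. Epx, Mpo, Ear1, Siglecf, Tbxa2r, Ptger2, Ptgfr, Ptger4, Ptgir and the genes of the closing section were chosen after their values were seen. The enzymes and all lists were chosen with earlier results of these data known.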

Additional observations from a re-analysis of the deposited data

How the results depend on the processing

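The 6 called enzyme genes kept their direction and call under all 15 alternatives of scaling, filter, test, block and left-out library, except that testing against a fold of 1.5, run beside these, no longer called Pla2g4a or Ltc4s. No enzyme gene changed direction. Of the 150 values, 10 passed the threshold where the reported one did not, all for Alox5ap, Lta4h, Ptgs1 or Ptges. Library totals gave 7 enzyme genes called lower, beside 5030 genes lower and 1698 higher in all (3372 and 3003 as reported), which goes with the shift of all genes to a median of -0.17. An adjusted p below 0.1 gave 5 enzyme genes called lower, beside 3937 genes in all. Testing against a fold of 1.5 left, by its construction, 709 higher and 883 lower genes in all and 4 higher and 9 lower genes of the wider list. By level per length, 4 of the 10 genes kept their place in PBS with the median transcript length, and 6 kept it in IL-3 with all exons merged. With 1 library left out, the change of the log2 ratio of Hpgds to Ptges ranged from -0.60 to 0.32, so its direction is not firm. Fits with 1 library left out called 3 to 4 enzyme genes lower, beside 2883 to 3108 genes in all. The labels give both groups the replicate numbers 1 to 3, but the deviations of same-numbered libraries correlated at -0.0087, -0.016 and -0.022, and 0 of 6 libraries correlated best with their own number. With the replicate block, 2842 genes were higher and 3247 lower, 3 and 3 of them enzyme genes, and the paired p of the ratios could not go below 0.25. Ltc4s and above all Ptges were read from few counts.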

Other observations

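Several genes of the pathway were too rare here to be tested. Ptgdr2, which encodes the prostaglandin D2 receptor CRTH2, had 0 counts in 5 of the libraries and 3 counts in IL-3 replicate 3. Hpgd, the gene of the main prostaglandin-inactivating dehydrogenase, had 3, 2 and 1 counts in the PBS libraries and 3, 0 and 1 counts in the IL-3 libraries. Ptgds, the other prostaglandin D synthase, had 4, 5 and 10 counts and 7, 3 and 3 counts. These genes did not pass the filter on low counts and were not compared. The receptors for cysteinyl leukotrienes were low but tested. Cysltr1 was at 2.23 ± 0.898 CPM with PBS and at 1.67 ± 0.627 CPM with IL-3 (SD, n = 3 each; edgeR adjusted p 0.376), and Cysltr2 was at 4.05 ± 1.92 and 2.38 ± 1.70 CPM (edgeR adjusted p 0.185).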
